A study of Mus musculus with 28 samples.

Results

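The pyruvate dehydrogenase kinases Pdk1, Pdk2, Pdk3 and Pdk4 and the pyruvate dehydrogenase phosphatases Pdp1 and Pdp2 were followed across mouse hearts. All probe sets annotated with 1 of these 6 symbols and no other were taken, which gave 10 probe sets of the 34945 with 1 symbol, and 6 of the 18193 genes those name. Heart RNA of 28 mice had been hybridised to Affymetrix arrays, 1 array per animal. The animals formed 4 groups of 7, namely untreated control mice, control mice given WY14643, untreated del337TR mice and del337TR mice given WY14643. WY14643 activates PPARalpha, a nuclear receptor that binds fatty acids and switches on genes of their use. The del337TR mice, whose name points to a deletion in a thyroid hormone receptor, serve as a strain resistant to thyroid hormone. Which receptor gene is affected, the zygosity, the strain background, the age and sex of the animals and the dose and duration of WY14643 are not stated in the labels. The arrays are numbered replicates of separate individuals.

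Pyruvate dehydrogenase is the mitochondrial enzyme complex that turns pyruvate into acetyl-CoA and so admits carbohydrate to the citric acid cycle. The kinases phosphorylate its E1alpha subunit and switch the complex off, and the phosphatases remove the phosphate and switch it on. In heart, Pdk4 is known to rise with fasting and with PPARalpha activation, when the muscle burns fatty acids, while Pdk2 is the widely expressed kinase and Pdk1 is known as a target of hypoxia-inducible factor. Pdp1 is the calcium-stimulated phosphatase of muscle, and Pdp2 is the insulin-responsive phosphatase that does not need calcium.

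The sequences just upstream of 3 of the members are shown, Pdk4 as the textbook PPARalpha target and Pdk1 and Pdp2 as the pair whose signals stood apart on the same arrays, as described later. RefSeq windows of GRCm38.p6 were found for 5 of the 6 genes, and Pdp1 was the one without. Each run holds the 250 bases before an annotated start, 5′ to 3′ on the gene's strand, and capitals mark matches to a searched motif. The Pdk4 window is chr6:5496279-5496528 on the minus strand, the first of 2 Pdk1 windows chr2:71872974-71873223 on the plus strand and the Pdp2 window chr8:104591222-104591471 on the plus strand.

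Pdk4: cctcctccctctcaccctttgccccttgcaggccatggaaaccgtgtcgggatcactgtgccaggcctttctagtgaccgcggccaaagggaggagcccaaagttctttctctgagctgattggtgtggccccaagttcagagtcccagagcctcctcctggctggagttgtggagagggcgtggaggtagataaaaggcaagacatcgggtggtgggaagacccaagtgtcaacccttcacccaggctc
Pdk1: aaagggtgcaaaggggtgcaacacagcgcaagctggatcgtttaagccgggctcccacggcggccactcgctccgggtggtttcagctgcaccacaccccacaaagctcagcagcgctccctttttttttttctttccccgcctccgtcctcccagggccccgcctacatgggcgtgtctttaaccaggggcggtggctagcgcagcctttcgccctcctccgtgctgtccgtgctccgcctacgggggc
Pdp2: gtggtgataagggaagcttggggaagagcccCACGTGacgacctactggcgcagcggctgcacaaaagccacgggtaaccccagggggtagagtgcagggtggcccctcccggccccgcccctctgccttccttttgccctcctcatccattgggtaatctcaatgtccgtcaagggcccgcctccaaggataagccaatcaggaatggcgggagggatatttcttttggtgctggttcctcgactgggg

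Both strands of the 7 windows of these genes were searched for AGGTCA, the half-site of nuclear receptors, and for AGGTCANAGGTCA, a direct repeat of it with 1 base between. They were also searched for ACGTG, a form of the core of the hypoxia response element. Other forms of that core were not searched and are not in capitals. AGGTCA stood in 4607 of 32851 RefSeq windows of this length, the repeat in 11 and ACGTG in 5444 (16.6%). AGGTCA and its repeat were found in none of the 7 windows, so neither was read in the Pdk4 window. ACGTG was read on both strands of 1 palindrome in Pdp2, at -219 to -214 from the start, where the matches overlap. It was found likewise in the first Pdk2 window at -126 to -121, and once in Pdk3 at -53 to -49. These are matches of letters in a short window.

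Signals were globally scaled intensities on a linear scale, and array medians ran from 60 to 77.8. Differences are given as log2 differences ± SE from limma, fitted to all 28 arrays, with p-values adjusted by Benjamini-Hochberg over 45037 probe sets and a threshold of 0.05. The 8 ventricular cardiomyocyte markers summed to 93858.2 to 158575 per array, so the heart label was borne by its markers. Atrial markers varied widely, from 3593.3 to 51569.9 in sum, and adipocyte markers were low, with sums of 76.0 to 566.3 over 5 of 7 genes measured. RNA of whole heart cannot tell fewer cells of a type from less RNA per cell. Of the 28 arrays, 5 stood apart in Myh7, the slow beta myosin heavy chain that thyroid hormone represses. They were replicate 7 of the untreated controls and replicates 1, 4, 6 and 7 of the treated controls, with Myh7 signals of 3102.7 to 6007.0 against 14554.0 to 24980.9 on the other 23 arrays. This split was seen in the data and is named by no label, and the arrays are described 1 by 1 and not tested as a group.

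No member passed the adjusted threshold in any of the 7 comparisons. For each of them 0 of 10 probe sets were called by limma, where the share called among all probe sets was 0.00222% for strain without WY14643 and 0% for the other 6. At an unadjusted p under 0.05 the members gave 4 probe sets higher and 1 lower in del337TR than in controls under WY14643, against 5.25% higher and 3.61% lower of all probe sets. For WY14643 in controls they gave 0 higher and 1 lower, against 2.39% and 4.36% of all. For strain over both treatments the counts were 2 higher and 0 lower, against 4.09% and 3.57%. No member was under 0.05 in the other 4 comparisons. There the shares of all probe sets were 1.66% higher and 2.35% lower for strain without WY14643, 2.95% and 2.83% for WY14643 in del337TR, 2.96% and 4.55% for WY14643 over both strains, and 3.26% and 1.65% where the WY14643 effects of the strains were set against each other. Several member probe sets read the same gene, so these counts are not counts of independent genes. Comparisons with a group in common share that group's 7 arrays. These counts moved with single arrays. Of the 5 for strain under WY14643, 2 were left without treated control replicate 7 or treated del337TR replicate 5, and 3 without treated control replicate 1 or 4 or treated del337TR replicate 4. With arrays centred on their medians 1 was left. Leaving out 1 array gave 0 to 4 for WY14643 in controls and 0 to 3 for strain over both treatments, with 0 for the latter without untreated control replicate 7 or treated control replicate 1 or 7. It gave 0 to 3 where the WY14643 effects were set against each other, with 3 without untreated control replicate 7 and 2 without treated control replicate 2, 3 or 5. For WY14643 over both strains it gave 0 to 1, with 1 without untreated control replicate 1, del337TR replicate 5 or treated del337TR replicate 1. No member separated a pair of groups without overlap. Among all probe sets the share that did was 0.0688% for strain without WY14643, 0.0866% for WY14643 in controls, 0.0733% for WY14643 in del337TR and 0.107% for strain under WY14643.

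**Figure D1:**
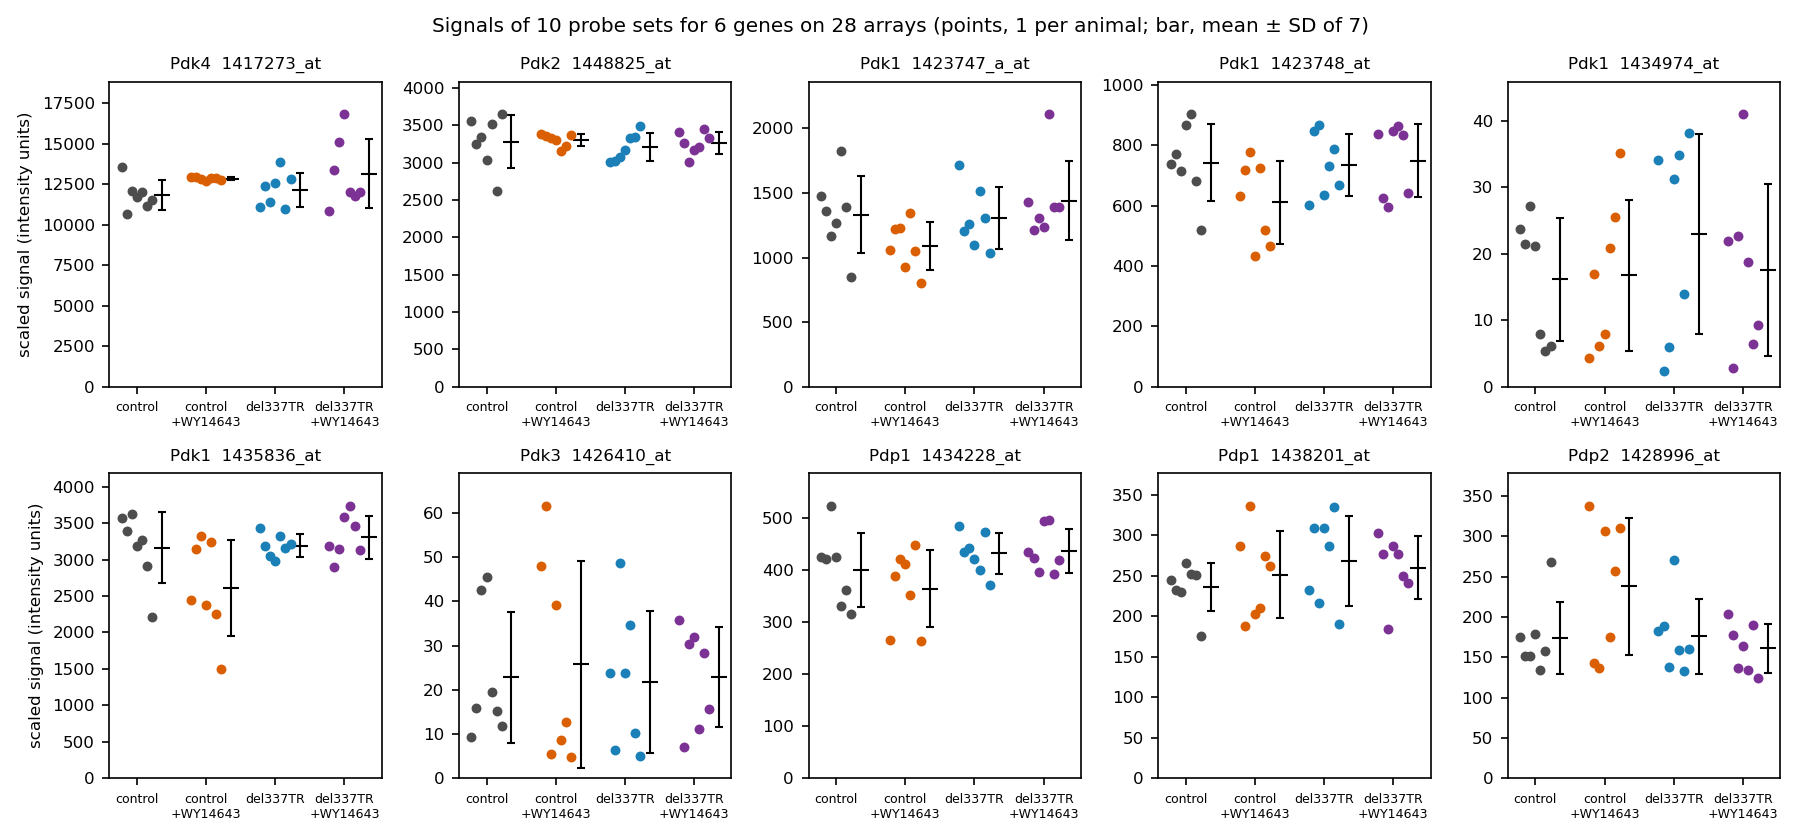
Scaled signals (intensity units, linear axes from 0) of the 10 member probe sets, with 1 point for each of 28 animals by group and a bar for the mean ± SD of 7. The groups overlap in every panel, and the Pdk4 points of treated controls lie between 12684.8 and 12955.2.

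Pdk4 was read by 1 probe set, 1417273_at. Its signals ran from 10663.2 over a median of 11731.4 to 13558.3 in untreated controls and from 12684.8 over 12902.5 to 12955.2 in treated controls. In del337TR they ran from 10957.4 over 12375.3 to 13848.6 without WY14643 and from 10826.8 over 12045.8 to 16816.7 with it. The ranges of all groups overlapped, and 1 untreated control lay above every treated control. The group means stood in the order 11823.8 ± 915.879 (SD, n = 7) in controls, 12153.8 ± 1053.71 in del337TR, 12847.2 ± 104.27 in treated controls and 13144.1 ± 2125.02 in treated del337TR. No neighbours in this order differed by more than the larger SD of the pair.

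The Pdk4 difference with WY14643 was 0.12 ± 0.09 in controls (limma adjusted p = 0.811) and 0.10 ± 0.09 in del337TR (limma adjusted p = 0.932). Over both strains it was 0.11 ± 0.06, a fold of 1.08 with a 95% interval of 0.991 to 1.18 (limma unadjusted p = 0.0782, adjusted p = 0.718). With quantile normalization the difference in controls was -0.02 and that over both strains 0.00. Between strains Pdk4 stood at 0.04 ± 0.09 without WY14643 and 0.02 ± 0.09 with it, and the difference of the WY14643 effects was -0.02 ± 0.12, with a 95% interval of -0.27 to 0.23.

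The spread of Pdk4 between animals depended on the group and on the scaling. Its coefficient of variation was 7.75% in untreated controls, 0.812% in treated controls, 8.67% in del337TR and 16.2% in treated del337TR. Among the 493 probe sets within a factor of 2 of its signal in treated controls, 0 had a smaller value, and their median was 8.99%. After quantile normalization the Pdk4 values were 9.17%, 7.37%, 3.23% and 3.86% in the same order, so the narrow group no longer stood out. Over the 28 arrays, with group means taken off, the log2 signal of Pdk4 went with the mean of the 451 brightest probe sets with r = 0.81, while the other members gave -0.10 to 0.17.

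**Figure D2:**
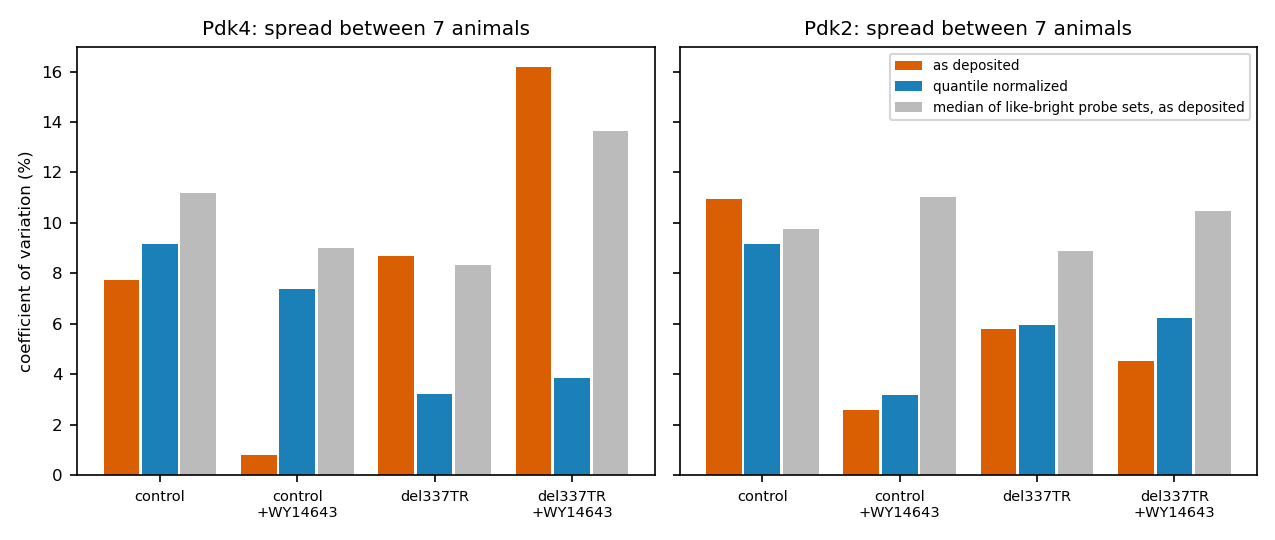
Coefficient of variation (%, axis from 0) of Pdk4 and Pdk2 between 7 animals of each group, as deposited and after quantile normalization, beside the median of probe sets within a factor of 2 in signal. The Pdk4 bar of treated controls is 0.812% as deposited and 7.37% after quantile normalization.

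Genes whose deviations from the group means ran most like those of Pdk4 were looked for among 19897 probe sets with 1 symbol and a mean signal above the median. The 5 highest were Cycs, which encodes cytochrome c, with r = 0.89, Acadm, the medium-chain acyl-CoA dehydrogenase, with 0.87, Ldhb, a lactate dehydrogenase subunit, with 0.86, Rps29, a ribosomal protein, with 0.86, and Atp5j2, an ATP synthase subunit, with 0.85. All had mean signals of 9022.9 or more and so shared brightness with Pdk4. After quantile normalization the same values were 0.58, 0.65, 0.45, 0.54 and 0.34. The 5 lowest were Gpr161 at -0.69, Fbxw19 at -0.68, Zfp362 at -0.67, Stk32b at -0.66 and Ap1g1 at -0.66, and after quantile normalization they stood at 0.03, -0.05, -0.05, -0.39 and 0.13. These coefficients over 28 arrays are descriptions and carry no test.

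Pdk2 was the steadiest of the brightly read members. Its probe set 1448825_at ran from 2620.7 over a median of 3350.5 to 3649.9 in untreated controls and from 3158.2 over 3325.8 to 3390.9 in treated controls. In del337TR it ran from 3010.0 over 3170.8 to 3497.8 without WY14643 and from 3016.0 over 3265.8 to 3445.6 with it. The untreated controls spanned every other group. Each of the 7 log2 differences lay between -0.03 and 0.03. WY14643 over both strains gave 0.02 ± 0.05, a fold of 1.01 with a 95% interval of 0.944 to 1.09 (limma adjusted p = 0.951). The coefficient of variation was 10.9% in untreated controls and 2.57% in treated controls, where 3 of 1703 like-bright probe sets had a smaller value. It was 9.15% and 3.16% after quantile normalization. Ctbp1, a transcriptional corepressor, had the most similar pattern with r = 0.71, followed by Hadh, a fatty acid oxidation enzyme, with 0.71 and Hibadh, an enzyme of valine breakdown, with 0.70.

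Pdk1 gave the member difference with the smallest unadjusted p. Its brightest probe set, 1435836_at, ran from 2210.8 over a median of 3267.4 to 3619.3 in untreated controls and from 1496.6 over 2449.0 to 3324.8 in treated controls. In del337TR it ran from 2980.5 over 3186.8 to 3433.7 without WY14643 and from 2900.8 over 3183.1 to 3737.7 with it. The low end belonged to the controls, and treated controls overlapped every other group. Under WY14643 del337TR stood 0.38 ± 0.14 above controls (limma unadjusted p = 0.0100, adjusted p = 0.436). WY14643 in controls stood at -0.31 ± 0.14 (limma unadjusted p = 0.0344, adjusted p = 0.734). Without treated control replicate 7 this was -0.18 (limma unadjusted p = 0.122), and without untreated control replicate 7 it was -0.39. The unadjusted p stayed under 0.05 in 20 of 28 fits that left out 1 array. WY14643 in del337TR stood at 0.05 ± 0.14. The difference of these effects was 0.35 ± 0.19, with a 95% interval of -0.05 to 0.75 (limma adjusted p = 0.956). Strain without WY14643 stood at 0.03 ± 0.14 and strain over both treatments at 0.20 ± 0.10.

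The other Pdk1 probe sets were 1423747_a_at and 1423748_at, and they gave 0.40 ± 0.15 and 0.31 ± 0.15 for strain under WY14643 (limma adjusted p = 0.462 and 0.547) and -0.28 ± 0.15 and -0.30 ± 0.15 for WY14643 in controls. The remaining one, 1434974_at, lay between 2.4 and 41.0, below the median of every array, and gave no usable reading of Pdk1. With the mean of all 4 probe sets, the dim one included, strain under WY14643 was 0.27 ± 0.19 and WY14643 in controls -0.22 ± 0.19.

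The low Pdk1 values lay mainly on the 5 arrays that stood apart in Myh7. No limma fit was run without all of these arrays. On these 5, Pdk1 by 1435836_at read 2210.8 in the untreated control and 2449.0, 2370.9, 2257.1 and 1496.6 in the treated controls. These were its 5 lowest values, against 2900.8 to 3737.7 on the other 23 arrays. The 3 other treated controls read 3138.3, 3324.8 and 3233.4, which lay inside the range of treated del337TR. By 1423747_a_at the 5 arrays read 802.6 to 1057.6 against 1033.1 to 2109.6, and by 1423748_at 434.5 to 632.4 against 595.5 to 902.6. Thrsp, a lipogenic protein induced by thyroid hormone, read 1261.4 to 1970.1 on the 5 arrays and 427.9 to 902.9 on the others. Kcnd2, a potassium channel subunit, read 795.0 to 1123.3 and 269.1 to 571.1. Pdk4 did not stand apart there, with 11530.8 to 12927.7 on the 5 arrays against 10663.2 to 16816.7, nor did Pdk2, with 3220.3 to 3649.9 against 2620.7 to 3556.9.

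**Figure D3:**
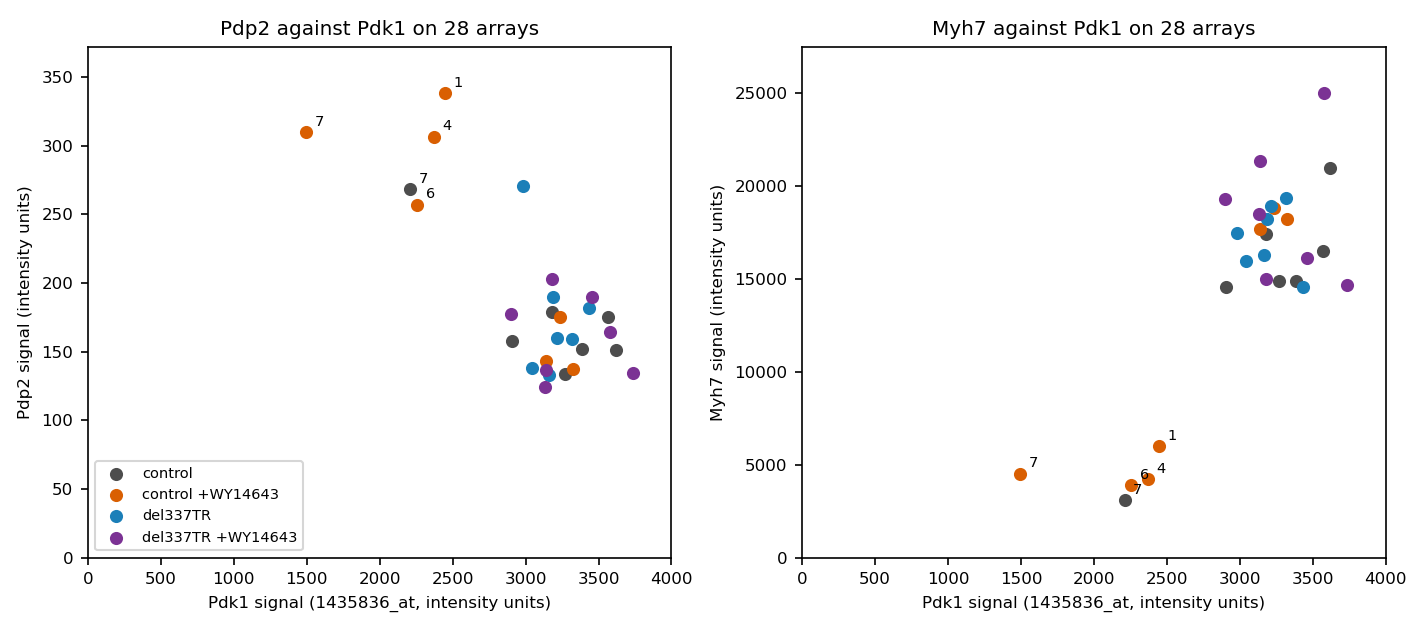
Pdp2 (left) and Myh7 (right) against Pdk1 by 1435836_at, in intensity units on linear axes, with 1 point per array coloured by group and the replicate number beside the 5 arrays with Myh7 under 10000. Those 5 lie at Pdk1 signals of 1496.6 to 2449.0, and the other 23 at 2900.8 or more.

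Genes with the pattern most like Pdk1 over 28 arrays were Anxa7, an annexin, Tmc6, a transmembrane channel-like protein, and Atp11a, a phospholipid flippase. Because the 5 low arrays shape such coefficients, they are given for the 14 del337TR arrays, where none of the 5 lies. There r was 0.16, 0.35 and 0.29.

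Pdk3 was dim. Its probe set 1426410_at read 9.3 to 45.4 in untreated controls, 4.8 to 61.6 in treated controls, 5.1 to 48.6 in del337TR and 7.1 to 35.8 in treated del337TR, each near or under the array medians. The SE of its differences was 0.61 for a pair of groups, so a rise of 2-fold lay within the 95% interval of each comparison of a pair of groups. For WY14643 in controls that interval ran from a fold of 0.360 to 2.03. Mapk9, a stress-activated kinase, was most similar with r = 0.71, then Gna12, a G protein subunit, with 0.69 and Cpne8, a copine, with 0.66.

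Of the phosphatases, Pdp1 was read by 2 probe sets. By 1434228_at it ran from 315.2 over a median of 421.5 to 523.8 in untreated controls and from 263.6 over 389.3 to 447.7 in treated controls. In del337TR it ran from 371.4 over 434.8 to 484.5 without WY14643 and from 392.5 over 424.2 to 496.3 with it. All groups overlapped, and 4 of the 7 treated controls lay below every treated del337TR animal. Strain under WY14643 gave 0.28 ± 0.13 (limma unadjusted p = 0.0321, adjusted p = 0.519) and strain over both treatments 0.20 ± 0.09 (limma unadjusted p = 0.0296, adjusted p = 0.611). WY14643 gave -0.14 ± 0.13 in controls and 0.01 ± 0.13 in del337TR. On the 5 arrays apart in Myh7, 1434228_at read 315.2 in the untreated control and 266.3, 411.4, 447.7 and 263.6 in the treated controls. Those arrays held 3 of its 5 lowest values, and the other 23 arrays read 331.8 to 523.8. The remaining treated controls read 389.3, 421.8 and 352.4.

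The other Pdp1 probe set, 1438201_at, gave 0.06 ± 0.15 and 0.11 ± 0.10 for the same strain comparisons. Over all arrays it read 175.2 to 336.4, and its groups overlapped too. Leaving out 1 array moved its strain difference under WY14643 between -0.01 and 0.14. Entpd5, an endoplasmic reticulum nucleotidase, had the pattern most like Pdp1 by 1434228_at, with r = 0.80, then Tfrc, the transferrin receptor, with 0.72 and Sh3kbp1, an endocytic adaptor, with 0.71. Over the 14 del337TR arrays these were 0.85, 0.07 and 0.65.

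Pdp2, by 1428996_at, ran from 133.9 over a median of 157.9 to 268.2 in untreated controls and from 137.2 over 257.1 to 338.1 in treated controls. In del337TR it ran from 133.1 over 160.2 to 270.8 without WY14643 and from 124.0 over 164.2 to 203.3 with it. The high values lay mainly among treated controls, and the groups overlapped. Under WY14643 del337TR stood at -0.50 ± 0.21 against controls (limma unadjusted p = 0.0243, adjusted p = 0.491). WY14643 in controls gave 0.40 ± 0.21 (limma unadjusted p = 0.0656, adjusted p = 0.752), WY14643 in del337TR -0.11 ± 0.21 and the difference of the effects -0.51 ± 0.29 (limma adjusted p = 0.956).

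Most of the high Pdp2 values too lay on the arrays apart in Myh7. The untreated control among them read 268.2 and the treated controls 338.1, 306.6, 257.1 and 310.1, against 124.0 to 270.8 on the other 23 arrays. Those 5 held 4 of the 5 highest Pdp2 values, the remaining one being a del337TR animal at 270.8. The 3 other treated controls read 142.9, 137.2 and 175.2, inside the range of treated del337TR. Il15, a cytokine, Kcnd2 and Cgrrf1, a ring finger protein, had the pattern most like Pdp2, with r of 0.48, 0.64 and 0.74 over the 14 del337TR arrays.

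**Figure D4:**
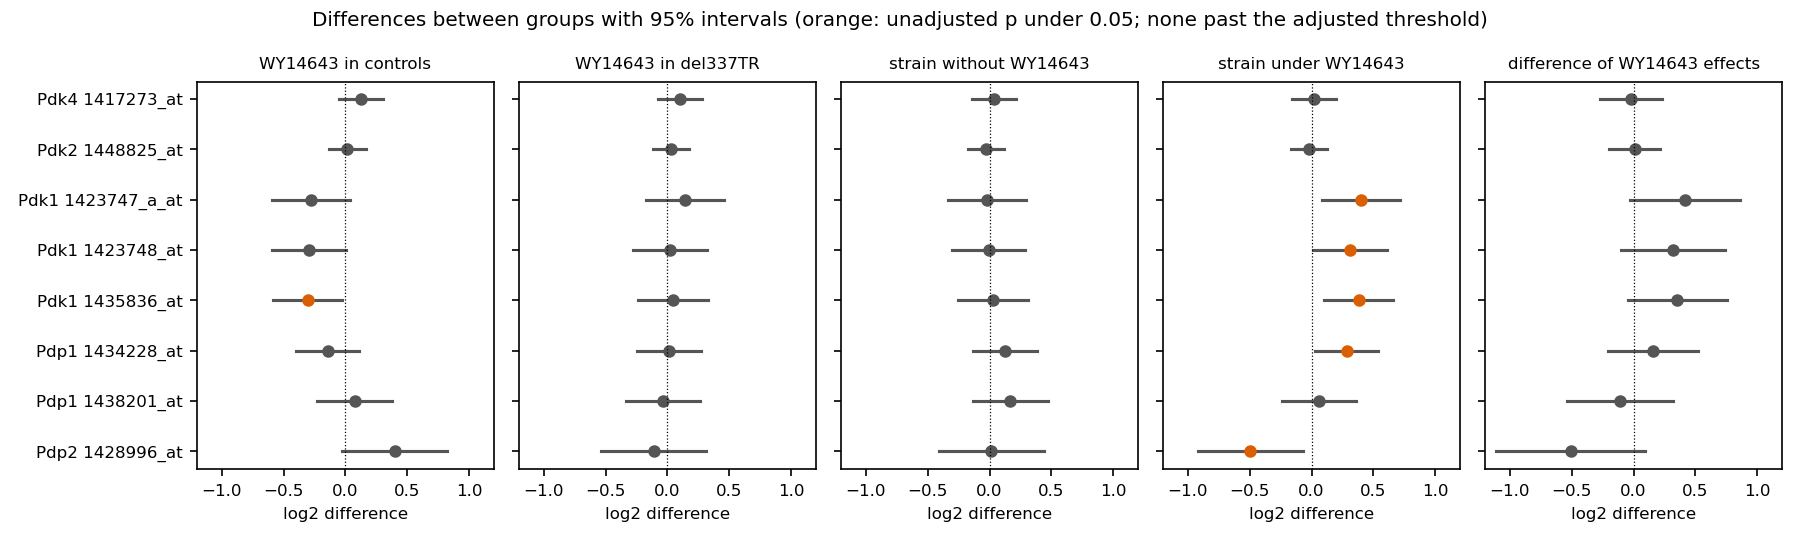
Log2 differences with 95% intervals (points and lines, from limma) for 8 member probe sets in 5 comparisons, with the 2 dimmest left out and a dotted line at 0. Orange marks an unadjusted p under 0.05, as for Pdk1 and Pdp2 in strain under WY14643 at 0.38 and -0.50, and no value passed the adjusted threshold.

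Markers of cell types were read in the comparison in which most member differences were seen, and none passed limma's adjusted threshold. Of all probe sets 5.25% were higher and 3.61% lower there at an unadjusted p under 0.05. Under WY14643 the 4 atrial markers summed to a median of 8456.2 (3593.3 to 31478.0) in controls and 21742.7 (9224.9 to 51569.9) in del337TR. All 4 were higher in del337TR, 1 of them at an unadjusted p under 0.05. Of these, Nppa read 2837.7 to 4703.4 on the treated controls apart in Myh7 and 11891.8 to 14345.3 on the other treated controls. Myl4 read 435.8 to 1875.6 on the former and 134.4 to 8124.7 on the latter. The untreated control apart in Myh7 read 12384.5 for Nppa. The 6 fibroblast markers summed to medians of 16332.6 (15028.3 to 19414.1) and 18174.8 (16711.7 to 20446.4), with all 6 higher and 0 at an unadjusted p under 0.05. Of the 5 adipocyte markers measured 3 were lower at an unadjusted p under 0.05, with a median log2 difference of -0.73, and their sums were 212.6 (161.8 to 312.2) in controls and 164.5 (76.0 to 217.7) in del337TR. These are dim signals, Adipoq reading 16.9 to 215.0 over all arrays. At the same p 1 of 6 endothelial and 1 of 5 smooth muscle markers were higher, 1 of 8 ventricular cardiomyocyte markers was lower, and 0 were under it among leukocyte, erythroid, skeletal muscle and sex-linked genes. Xist, high in females, lay above the Y-linked Eif2s3y on 3 of 7 treated control and 1 of 7 treated del337TR arrays. Without WY14643 it did so on 2 of 7 control and 4 of 7 del337TR arrays, so the sexes were mixed unevenly by these genes. No atrial, fibroblast or adipocyte marker was at 0. With an atrial score as a covariate Pdk1 by 1435836_at stood at 0.41 and Pdp2 at -0.50, beside 0.38 and -0.50 without it. That score was made of Myl4, Myl7 and Sln and left out Nppa, the remaining atrial marker. Beyond the fit with this atrial score, the part of atrial, fibroblast or adipocyte RNA in the member differences was not tested.

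Members were compared with each other by their deviations from the group means, for 15 pairs. Over all 28 arrays Pdk1 with Pdp2 was 1 pair of 15 that passed (permutation test, adjusted p = 0.0300), and it did not pass by Spearman's rho (permutation test, adjusted p = 0.116). No r is given over all arrays, since they fall into 2 clusters, and the cluster of 5 is too small for one. Over the other 23 arrays r was -0.12 and rho -0.04 (permutation test, adjusted p = 0.995 and 0.964). Pdk1 with Pdp1 gave r = 0.53 and rho = 0.53 there (permutation test, unadjusted p = 0.0220 and 0.0185, adjusted p = 0.330 and 0.278), and r = 0.41 without the 2 arrays farthest from the median. The kinases Pdk4 and Pdk2, which both lower the activity of the complex, gave r = 0.05 and rho = 0.01 over the 23 arrays (permutation test, adjusted p = 0.995 and 0.964).

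Around these regulators, the complex itself and its neighbours were read from lists, each gene by its brightest probe set, and no listed gene passed limma's adjusted threshold in any comparison. The 6 genes listed for the pyruvate dehydrogenase complex were all measured. Pdpr, the regulatory subunit of the phosphatase, was counted among them. For WY14643 in controls 5 were higher, with a median log2 difference of 0.09 against -0.03 over all probe sets. Higher at an unadjusted p under 0.05 were 2, against 2.39% of all probe sets. These were Pdhb, the E1beta subunit, at 0.22 ± 0.09 and Dlat, the E2 acetyltransferase, at 0.23 ± 0.10. Under WY14643 all 6 were lower in del337TR, with a median of -0.14 against 0.04, Dlat at -0.29 ± 0.10 and Pdhb at -0.20 ± 0.09. Mean signals of Dlat were 3048.06 ± 415.364 (SD, n = 7) in controls, 3610.26 ± 673.336 in treated controls, 2822.36 ± 185.413 in del337TR and 2919.0 ± 191.269 in treated del337TR, so the treated controls were the highest group and the most spread.

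Genes of pyruvate supply and its other uses were 12 measured of 13. For WY14643 in controls 2 were higher and 0 lower at an unadjusted p under 0.05, against 2.39% and 4.36% of all probe sets. These were Pkm, pyruvate kinase, at 0.15 ± 0.06 and Mpc1, a subunit of the mitochondrial pyruvate carrier, at 0.21 ± 0.09. For strain under WY14643 1 was higher at that p, Hk1, a hexokinase, at 0.28 ± 0.11, and 1 lower, Slc2a4, the insulin-responsive glucose transporter, at -0.23 ± 0.10. Of all probe sets 5.25% were higher and 3.61% lower there. The branched-chain dehydrogenase is the related complex with a kinase and phosphatase of its own. Of its 5 genes 3 were lower in strain under WY14643, of which 2 had an unadjusted p under 0.05, against 3.61% of all probe sets. These were Bckdhb at -0.42 ± 0.13 and Bckdha at -0.23 ± 0.08, while its kinase Bckdk stood at 0.19 ± 0.10.

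PPARalpha target genes, the group to which Pdk4 is known to belong, were 20 measured of 25. With WY14643 in controls 14 were higher with a median of 0.08, and 1 was higher at an unadjusted p under 0.05, against 2.39% of all probe sets. This was Acadvl, the very long-chain acyl-CoA dehydrogenase, at 0.24 ± 0.08. Angptl4, a lipase inhibitor and PPAR target, stood at -0.71 ± 0.46 there. For WY14643 in del337TR 13 were higher with a median of 0.05, and 0 higher and 1 lower were under 0.05, against 2.95% and 2.83% of all. For strain under WY14643 the counts under 0.05 were 0 higher and 2 lower, against 5.25% and 3.61% of all. The 2 were Ucp3, an uncoupling protein, at -0.87 ± 0.28 and Acadvl at -0.19 ± 0.08. On the treated controls apart in Myh7, Ucp3 read 1603.5, 1394.5, 967.4 and 1565.4. The other treated controls read 747.9, 622.0 and 545.6, inside the range of treated del337TR, 368.1 to 945.3.

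Transcription factors known to act on Pdk genes were 20 measured of 22. In controls given WY14643 1 was higher and 1 lower at an unadjusted p under 0.05, against 2.39% and 4.36% of all probe sets. These were Ppard, a fatty acid receptor, at 0.44 ± 0.18 and Ppargc1a, a coactivator of mitochondrial genes, at -0.49 ± 0.23. For strain under WY14643 1 was higher and 5 lower at that p, against 5.25% and 3.61% of all probe sets. Among the lower were Lpin1, a PPARalpha coactivator, at -0.75 ± 0.19 (limma unadjusted p = 0.000461, adjusted p = 0.403), Ppard at -0.67 ± 0.18 and Pparg at -1.11 ± 0.32. Ppara itself stood at -0.49 ± 0.18 for WY14643 in del337TR. Of 10 measured thyroid hormone responsive heart genes 9 were higher for WY14643 in controls. At an unadjusted p under 0.05 4 were higher and 0 lower, against 2.39% and 4.36% of all probe sets, with Klf9, a Krüppel-like factor, at 0.28 ± 0.11, Thrsp at 0.47 ± 0.22 and Hr, a corepressor, at 0.61 ± 0.30. Under WY14643 3 were higher and 7 lower in del337TR, of which 1 and 4 had an unadjusted p under 0.05, against 5.25% and 3.61% of all, with Thrsp at -0.88 ± 0.22, Hr at -0.84 ± 0.30 and Myh7 at 1.14 ± 0.38. The 5 arrays described above hold the 5 lowest Myh7 and the 5 highest Thrsp and Kcnd2 signals. All 3 genes are in this list, which was chosen with the split of the treated controls known. Its counts are therefore no separate evidence of a thyroid hormone response.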

How the data were processed

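Heart RNA of 28 mice was measured on 1-colour Affymetrix arrays. The deposited intensity values are linear, and the submitters' processing notes name RMA, whose output they do not resemble, since they are not logged and every array had the same trimmed mean of 250.0 (2% off either tail). They were used as globally scaled signals. The software that scaled them is not given in the sources used here. Of 45101 probe sets, 64 AFFX controls were left out and 45037 tested. Platform annotation gave 1 symbol to 34945, several to 932 and none to 9160.

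Values were floored at 0.1 (3 values), log2 transformed and fitted as 4 group means with limma (version 3.58.1, under R 4.3.3; lmFit with moderated statistics from eBayes, 24 residual degrees of freedom), two-sided, with Benjamini-Hochberg adjustment per contrast. Pairs of members were tested with 100000 permutations of arrays within groups. The 7 contrasts were strain without and under WY14643, WY14643 in each strain, the difference of the WY14643 effects, and each factor averaged over the other. The fit and the permutation test were checked on simulated data. The number of arrays limits the precision.

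All probe sets of the 6 genes are reported. From each list the up to 3 genes with the smallest unadjusted p in a comparison could be named, and for likeness the 5 highest and 5 lowest for Pdk4 and the 3 highest for other members. Other genes named, among them the genes that mark the arrays apart, were chosen after their values were seen. The members and lists were chosen with earlier results of these data known, and the split of the treated controls was among those results. Hypoxia inducible and glucocorticoid responsive genes were listed too. Marker lists also covered endothelial, leukocyte, smooth muscle, erythroid, skeletal muscle and sex-linked genes. Alternatives covered scaling, floor, filter, variance model, weights, covariates, the replicate number, the groups fitted and each array left out. Quantile normalization for likeness and spread, the 23 arrays and averaging a gene's probe sets were added after the data were seen.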

Additional observations from a re-analysis of the deposited data

Results flagged for a closer look

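The 10 probe sets were searched in each group of 7 for an array far from the others, which gave 40 searches and 3 finds, where chance gives about 1 in 20. In treated del337TR, Pdk1 by 1423747_a_at read 2109.6 in replicate 5, the highest of its group, with a gap to the next array of 0.707 of the range, above Dixon's limit for 7 values. In untreated controls, Pdp1 by 1438201_at read 175.2 in replicate 7, the lowest of its group, with a gap of 0.655. In the same untreated control animal, Pdp2 read 268.2, the highest of its group, with a gap of 0.580. That animal is also 1 of the 5 with a Myh7 signal under 10000.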

How the results depend on the processing

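The count of called members stayed at 0 in all 7 comparisons under every alternative run for them. The fits without 1 array each gave 0 to 0. The lowest limma adjusted p among the alternatives was 0.282, for Pdk1 in strain under WY14643 with probe sets above the 40th percentile. That filter left out Pdk3 and 1434974_at, so fewer than 10 probe sets were counted there. The fit of only the groups compared was run for the comparisons of a pair of groups alone. The count of related pairs, 1 of 15, was 2 with arrays centred on their medians, where Pdk4 with Pdk1 and Pdk1 with Pdp1 passed and Pdk1 with Pdp2 did not (adjusted p = 0.0407, 0.0195 and 0.109). It was 0 by Spearman's rho and 0 over the 23 arrays with higher Myh7, and 1 after quantile normalization. Of the single member values, 2474 kept their direction and side of the threshold and 156, none of them called, changed sign. With the replicate number as a block 0 members were called as well. Same-numbered arrays correlated between -0.16 and 0.22 and 7 of 28 arrays were closest to their own number. No label says that the numbers pair the animals, and these values do not settle it. No scaling moved the median of all probe sets by over 0.1. Probe sets near or under the array medians, Pdk3 and 1434974_at, had the widest errors of the members, and their changes could not be resolved.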

Other observations

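Listed genes known to respond to hypoxia, as Pdk1 does, were all measured, 11 of 11. In treated against untreated controls 3 were higher and 0 lower at an unadjusted p under 0.05, against 2.39% and 4.36% of all probe sets. These were Pgk1, a glycolytic kinase, at 0.23 ± 0.08 (SE), Bnip3, a mitophagy receptor, at 0.19 ± 0.08 and Egln1, an oxygen sensor, at 0.27 ± 0.11. Pdk1 by 1435836_at stood at -0.31 ± 0.14 there. For strain under WY14643 0 were higher and 2 lower at that p, against 5.25% and 3.61% of all. The 2 were Egln1 at -0.33 ± 0.11 and Egln3 at -0.62 ± 0.28.

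Listed genes known to respond to glucocorticoids and FoxO, as Pdk4 does, were 14 of 14 measured. For WY14643 in controls 13 were higher with a median of 0.13 against -0.03 over all probe sets, and 0 had an unadjusted p under 0.05. For strain under WY14643 9 were lower, of which 1 had an unadjusted p under 0.05, against 3.61% of all probe sets. It was Fbxo32, a muscle ubiquitin ligase, at -0.59 ± 0.18. None of these genes passed limma's adjusted threshold over all probe sets.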
